A study of Mus musculus with 4 samples.

Results

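The CD8 T cells described here are 681 of the 29752 spleen cells that passed the cell filter, with 349 in library 1 and 332 in library 2. They were chosen by a rule on RNA and antibody counts in each cell. A cell needed at least 500 detected genes, at least 1000 RNA molecules (unique molecular identifiers, UMIs) and under 10% mitochondrial UMIs. It also needed at least 2 UMIs of Cd3d, Cd3e and Cd3g together, at least 1 UMI of Cd8b1, none of Cd4 or Foxp3, at most 2 UMIs each of the XCR1 and CD172a antibodies, and at most 1 UMI of Naaa. The spleens came from 2 wild-type C57BL6 mice in steady state, with no treatment, and CITE-seq counted messenger RNA and antibody-linked barcodes in the same cells. Cells were enriched for dendritic cells by negative selection, then a sort put together 50000 to 60000 type 1 conventional dendritic cells, 10000 type 2 conventional dendritic cells and 10000 random live cells. T cells were not a sorted target, so their share of all cells was set by the sort and is not compared here. The labels give 2 replicates, each an RNA and an antibody library, and do not say whether each replicate came from one animal. The p-values therefore speak only of the spread between the 2 libraries, which may be technical.

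CD8 T cells recognise peptides on MHC class I molecules through a T cell receptor of α and β chains, and the CD8 co-receptor, a dimer of CD8α and CD8β, binds the same MHC molecule. After activation they can kill target cells with perforin and granzymes and can release interferon-γ and chemokines. In the spleen of an unchallenged mouse, naive cells that recirculate through lymphoid tissue with the help of the chemokine receptor CCR7 stand beside memory-type cells that carry Ly6C, CD122 or CXCR3.

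Surface proteins were read through designed barcodes, each attached to an antibody. The barcodes of the antibodies that the results turn on are shown because every surface value below is a count of 1 of these sequences. They are written 5′ to 3′, and capitals mark bases that differ from the CD8b barcode at the same position.
CD8b: ttccctctatggagc
CD8a: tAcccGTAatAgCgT
CD4: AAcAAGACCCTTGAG
Ly6C: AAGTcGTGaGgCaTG
KLRG1_mh: GtAGTAGGCtAgaCc
CD103: ttcATtAGCCCgCTG
CD44_mh: tGGcTtcAGGTCCTA
The CD8a barcode differed from the CD8b barcode at 7 of 15 bases and the CD4 barcode at 14.

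The CD8 T cells had a median of 3504 RNA UMIs, 1303 genes and 673 antibody UMIs per cell, and their summed RNA came to 1357197 UMIs in library 1 and 1192136 in library 2. The other gated cells were shallower, with medians of 2480 RNA UMIs in T cells without Cd8b1, 2491 in Cd4-positive T cells and 2265 in natural killer (NK) cells. In all, 61 barcode sequences occurred in both libraries, and 1 CD8 T cell carried such a barcode. A doublet caller marked 6 of the CD8 T cells, all in library 2, and they were kept, with a repeat without them as an alternative. Markers of dendritic cells, the main sorted population, were detected in every gate: the 15 markers summed to 2910 and 5426 CPM (a gene's UMIs scaled to 1000000 RNA UMIs) in the CD8 T cells of libraries 1 and 2 and to 93400 and 95860 in type 1 conventional dendritic cells. Without Cd74 and 3 MHC class II genes, which B cells make themselves, the other 11 summed to 1104 and 1923 CPM in CD8 T cells, 2038 and 2234 in B cells of the same limits and 36430 and 38310 in type 1 conventional dendritic cells. The source of this RNA in the T cell gates was not tested. The 10 B cell markers summed to 234 and 239 CPM in the CD8 T cells.

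T cell genes and surface proteins that the rule did not use were checked against the label. Trbc2, a constant segment of the T cell receptor β chain, stood at 1708 and 1768 CPM in the CD8 T cells of libraries 1 and 2 and at 8.68 and 6.21 CPM in B cells. Ms4a4b, a membrane protein of T cells and NK cells, stood at 1507 and 1512 CPM in the CD8 T cells and at 17.4 and 24.8 CPM in B cells. Both genes were far above the B cell level in each library. They speak for T cells and not for CD8 T cells, since Trbc2 also stood at 1669 CPM in T cells without Cd8b1, both libraries together. Of the 681 cells, 663 (97.4%, exact binomial 95% interval 95.8 to 98.4) had at least 10 UMIs of the CD8b antibody and fewer than 10 of the CD4 antibody. A further 5 cells had CD4 antibody only, 6 had both and 7 had neither. CD8b and CD4 are the proteins of the rule genes Cd8b1 and Cd4, so the rule favours this result. Intervals cover counting error only.

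**Figure D1:**
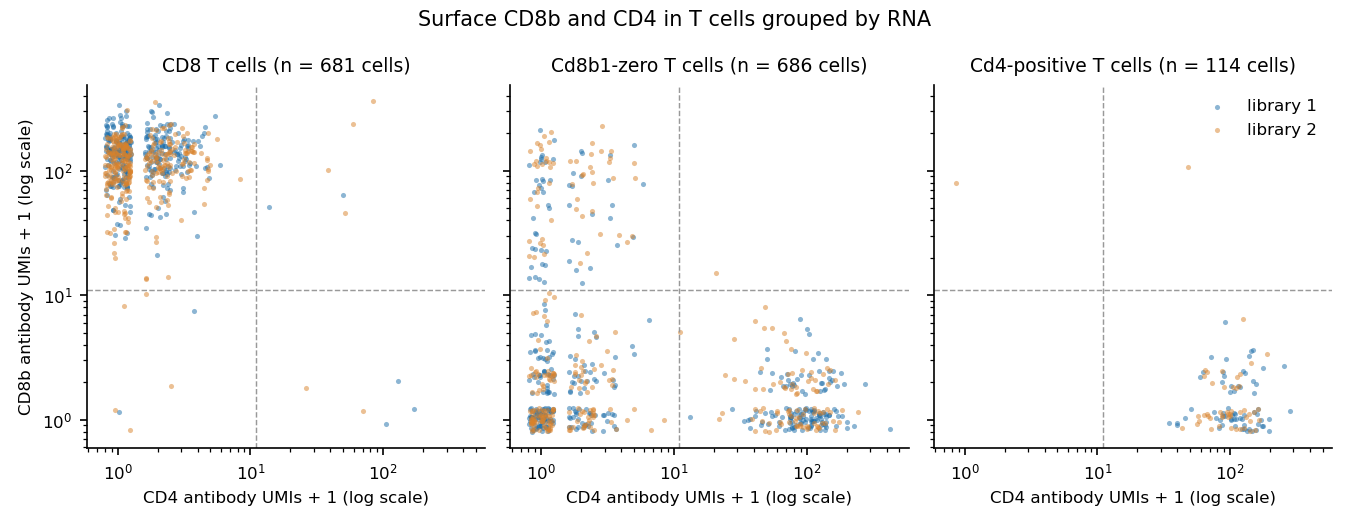
CD8b antibody UMIs (vertical, log scale, 1 added) against CD4 antibody UMIs (horizontal, log scale, 1 added) in single T cells grouped by RNA, coloured by library, with dashed lines at 10 UMIs and small random shifts that part overlapping points. Nearly all CD8 T cells (663 of 681) lie in the upper left, the Cd4-positive cells (112 of 114) in the lower right, and the Cd8b1-zero cells spread over 3 areas.

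The edge of the rule showed how far 1 molecule of Cd8b1 decided membership. The 121 members with a single Cd8b1 UMI had a median of 87 CD8b antibody UMIs, and 91.7% of them had at least 10. The 560 members with more Cd8b1 had a median of 128.5, and 99.6% had at least 10. Just outside, among the 686 cells with no Cd8b1 UMI, the median was 0, yet 113 cells (16.5%) had at least 10 CD8b antibody UMIs. The 30 cells left out with 3 or 4 UMIs of XCR1 or CD172a and the 40 left out with at least 2 Naaa UMIs also carried CD8b on the surface, with medians of 129 and 112 UMIs, and 8 and 20 of them were marked as doublets. Only 9 gated cells would have been members but for a Cd4 UMI, and they had a median of 94 CD4 antibody UMIs and 1 CD8b UMI. The T cells without Cd8b1, used for comparison, were thus a mixture: 112 had surface CD8b only, 234 had surface CD4 only, 339 had neither and 1 had both. Among those with neither, Trdc, the constant segment of the T cell receptor δ chain, stood at 1005 CPM and Trac, that of the α chain, at 179 CPM, while in those with surface CD4 only Trdc was 51.2 CPM and Trac 813 CPM. Of CD8 and Cd8b1-zero cells together, CD8 T cells made up 48.0% in library 1 (exact binomial 95% interval 44.3 to 51.7) and 51.9% in library 2 (47.9 to 55.8).

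Within the CD8 T cells, effector genes differed in how many cells held them. Nkg7, a membrane protein of cytotoxic granules, was detected in 634 cells (93.1%), and Ccl5, a chemokine of memory-type CD8 T cells, in 432 cells (63.4%). In B cells of the same limits, with a median of 2112 UMIs, Ccl5 was detected in 12.3% and 12% of cells and Nkg7 in 2.83% and 0.85%. After each cell was thinned to 1500 UMIs, Ccl5 was found in 55.6% and 57.0% of CD8 T cells against 8.33% and 7.37% of B cells. Perforin (Prf1) was found in 182 CD8 T cells, against 4.72% and 4.27% of B cells, and Gzmm, which encodes granzyme M, in 143 (21%). Granzyme A (Gzma) was held by far fewer cells: 67 cells (9.84%, 34 and 33 by library) had any, and the top 34 cells held 96.6% of its 1020 UMIs. Granzyme B (Gzmb) was detected in 41 cells and granzyme K (Gzmk) in 25. In B cells Gzma was detected in 3.77% and 0.85% of cells and Gzmb in 0% and 0.85%. Neither Gzmk nor Gzmm had a UMI in any of 223 B cells, which allows a share of B cells with a UMI of up to 1.35%. Xcl1, a chemokine that attracts XCR1-bearing dendritic cells, was found in 118 CD8 T cells (17.3%) and in 0.94% and 0.85% of B cells, and a single CD8 T cell held 29.2% of its UMIs. Ly6c2, which encodes the surface protein Ly6C, was found in 498 cells (73.1%), against 8.49% and 4.27% of B cells. Reads shared by near-identical copies, such as Ly6c2 with Ly6c1 or members of the Klra family, could be split or lost in counting, so the levels of those genes are uncertain.

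The surface proteins KLRG1, CD103, CD69 and CD150 reached 10 UMIs, a limit chosen after the values were seen, on few CD8 T cells. KLRG1, an inhibitory receptor of effector cells, did so on 22 cells, CD103, an integrin chain that binds E-cadherin, on 21, CD69, an activation and retention protein, on 12 and the SLAM receptor CD150 on 30. At least 1 UMI of CD150 was found on 346 cells (50.8%), of CD103 on 215 (31.6%), of CD69 on 91 (13.4%) and of KLRG1 on 71 (10.4%). In B cells, with a median of 590 antibody UMIs per cell against 673, the shares with at least 1 UMI were 87.4% for CD150, 10.8% for CD103, 15.2% for CD69 and 6.28% for KLRG1. The CD150 and CD69 shares on CD8 T cells were below those of B cells. Neither is read as the share of cells bearing the protein. Whether B cells carry these proteins was not tested. The CD8 T cells with at least 10 UMIs were too few to show whether any of the proteins are carried together. The NK receptor Ly49D was carried at 10 or more UMIs by 1 cell in each library, with 87 and 101 UMIs, and these 2 cells held 72.9% of all Ly49D UMIs of the CD8 T cells. The CD44 antibody gave 14 UMIs in all 681 cells and was at 0 in 669 of them, so CD44, the usual marker of antigen experience, could not be used to divide the cells. Isotype control antibodies reached at most 2.92 and 2.31 per 10000 antibody UMIs in the CD8 T cells, and antibody levels near or under that are not read as surface protein.

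The first comparison asked how CD8 T cells differ from the other gated T cells, those with no Cd8b1, Cd4 or Foxp3 UMI. Beyond CD8 itself, CD8 T cells had more RNA of Gzmm, Ly6c2 and genes of recirculating T cells such as Ccr7, Dapl1 and Lef1. They had less RNA of helper, regulatory and γδ T cell genes, of NK receptors and of several cytokines. UMIs were summed per cell group and library and tested with edgeR's quasi-likelihood test with the library as a block, and Benjamini-Hochberg adjustment over 8269 genes. In all 188 genes (2.27%) were higher and 247 (2.99%) lower in CD8 T cells at an adjusted p under 0.05. With UMI totals in place of TMM scaling, the median log2 difference of all genes moved from 0.00 to -0.17 and the split became 118 higher and 447 lower. DESeq2 called 84 higher and 108 lower.

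Cd8a, which encodes the other chain of the co-receptor and was no part of the rule, stood at 387 and 378 CPM in the CD8 T cells of libraries 1 and 2 and at 66.6 and 92.6 CPM in Cd8b1-zero T cells. The groups were far apart in both libraries, a log2 difference of 2.45 (SE 0.19, adjusted p = 2.15e-08), though DESeq2 did not call it (adjusted p = 0.45). On the surface, the CD8a antibody stood at 415 and 416 per 10000 antibody UMIs against 96.6 and 169, a log2 difference of 1.97 (SE 0.25, adjusted p = 0.00104). The CD8b antibody, which the choice by Cd8b1 favours, stood at 1813 and 1702 per 10000 against 152 and 285, and the CD4 antibody at 26.6 and 24.9 against 549 and 440. These last levels are given as a description only.

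Of 18 genes of naive and recirculating T cells that were tested, 4 were higher in CD8 T cells and 1 lower, with a median log2 difference of 0.34 against 0.00 over all genes. Ccr7, the chemokine receptor that guides T cells into T cell zones, stood at 659 and 740 CPM in CD8 T cells against 436 and 372, a log2 difference of 0.95 (SE 0.19, adjusted p = 0.0025). Dapl1 stood at 147 and 240 CPM against 118 and 122, a log2 difference of 0.81 (SE 0.15, adjusted p = 0.00143). Each was higher in both libraries, with wider spread between libraries for Dapl1. Lef1, a transcription factor of naive T cells, had a log2 difference of 0.49 (SE 0.13, adjusted p = 0.0258). None of the 4 was called by DESeq2, and Lef1 also lost its call with UMI totals, without the block and with thinned cells, with an adjusted p over the alternatives of up to 0.52. The gene that was lower, Igfbp4, a secreted binder of growth factors, had a log2 difference of -0.78 (adjusted p = 0.0322; 0.62 with DESeq2).

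Cytotoxic genes did not move together. Gzmm stood at 121 and 97.3 CPM in CD8 T cells and at 34.2 and 35.2 CPM in Cd8b1-zero T cells, a log2 difference of 1.83 (SE 0.20, adjusted p = 2.76e-06). Gzmm was the 1 gene of 22 in the cytotoxicity list that was higher, in both libraries, while 10 were lower: 8 killer cell receptors of the Klra, Klrc and Klrk families, the granzyme inhibitor Serpinb9 and the granule proteoglycan Srgn. The median was -0.41, and DESeq2 called 1 higher and 8 lower. Klrk1, which encodes the activating receptor NKG2D, stood at 57.5 and 57.9 CPM against 175 and 241, and Klra7, an inhibitory receptor of NK cells, at 5.89 and 5.87 CPM against 71.1 and 183. Both were lower in each library, with log2 differences of -1.66 (SE 0.16, adjusted p = 7.24e-07) and -4.16 (SE 0.39, adjusted p = 3.15e-07). Of the 11 NK markers tested, 7 were lower and none higher.

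Cytokine genes were lower where they passed the test, 6 of 14, with a median log2 difference of -0.98. Ifng stood at 28.7 and 18.4 CPM in CD8 T cells against 145 and 122, a log2 difference of -2.31 (SE 0.21, adjusted p = 1.98e-07). Ccl3, a chemokine of activated lymphocytes, stood at 6.63 and 13.4 CPM against 87.3 and 98.5, a log2 difference of -3.06 (SE 0.25, adjusted p = 3.35e-08). For both, the CD8 T cells were low in each library. Xcl1 stood at 160 and 172 CPM against 299 and 471, and its call (adjusted p = 0.0239) was lost with DESeq2, without the block and with at least 4 Cd3 UMIs. No Il17a UMI was found in CD8 T cells against 69 UMIs in the comparison cells, at least 29.9-fold lower from a limit of 3 UMIs over the group.

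Genes of helper and regulatory T cells were lower in CD8 T cells, in 10 of 19 and 5 of 5 genes tested, while 1 helper gene was higher. The counts overlap, since Tnfrsf4, Ikzf2, Izumo1r and Ctla4 are in both lists. Tnfrsf4, which encodes the costimulatory receptor OX40, stood at 4.42 and 7.55 CPM in CD8 T cells against 191 and 120, a log2 difference of -4.53 (SE 0.29, adjusted p = 7.76e-10). Ikzf2, which encodes the transcription factor Helios, stood at 28.7 and 59.6 CPM against 309 and 305, a log2 difference of -2.65 (SE 0.20, adjusted p = 1.51e-08). Maf, a transcription factor of helper and γδ T cells, stood at 2.95 and 4.19 CPM against 88.2 and 76.2. The 3 genes were near 0 or low in the CD8 T cells of both libraries. Areg, a growth factor made by tissue-repair T cells, had 2 UMIs in CD8 T cells against 213, a ratio of 138 per UMI (counting interval 37.8 to 1149). Cxcr5, the follicle-homing receptor, was the helper gene that was higher, with 18.4 CPM in each library of the CD8 T cells against 8.10 and 4.69 (adjusted p = 0.0455), and the call was lost with UMI totals, with DESeq2, without marked doublets and with at least 4 Cd3 UMIs.

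Of the 4 tested genes of γδ and innate-like T cells 3 were lower: the γδ receptor segments Trdc and Trgv2, and Klrb1c, which encodes the NK receptor NK1.1 and is also among the 7 NK markers above. Trdc stood at 62.6 and 73.0 CPM in CD8 T cells against 616 and 479, a log2 difference of -2.85 (SE 0.16, adjusted p = 1.17e-10). It was not absent from the CD8 T cells: 45 of them (6.61%) held at least 1 Trdc UMI, against 0.94% of B cells in library 1 and none of 117 in library 2, which allows a share of B cells with a UMI of up to 2.56%. Trac stood at 542 and 504 CPM against 493 and 397, a log2 difference of 0.40 (SE 0.11, adjusted p = 0.028) that was lost with UMI totals, with DESeq2, without the block and with at least 4 Cd3 UMIs.

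Memory genes were lower in 11 of 26, with a median of -0.62, and higher in 1, Ly6c2. S100a4, a calcium-binding protein of effector and memory T cells, stood at 37.6 and 49.5 CPM in CD8 T cells against 356 and 206, and Itga4, the α4 integrin chain, at 90.6 and 104 CPM against 248 and 288. Both were lower in each library, with log2 differences of -2.52 (SE 0.31, adjusted p = 1.13e-05) and -1.29 (SE 0.14, adjusted p = 2.73e-06). Ly6c2 stood at 1049 and 1014 CPM against 624 and 636, a log2 difference of 0.88 (SE 0.11, adjusted p = 1.82e-05), while its near-identical copy Ly6c1 was among the lower genes. Immediate early genes were lower in 10 of 26 and higher in none, with a median of -0.31. Nr4a1, a gene induced by T cell receptor signals, stood at 157 and 141 CPM against 352 and 332 (log2 difference -1.03, SE 0.12, adjusted p = 6.48e-06), and Fos and Junb had log2 differences of -0.67 and -0.53, both without a DESeq2 call. Homing receptors were higher in 3 of 25 and lower in 7, with a median of -0.12. In the remaining lists calls numbered none higher and 5 lower of 13 coinhibitory genes, none and 3 of 30 cytokine receptors, none and 4 of 23 cell cycle genes, none and 2 of 23 interferon-stimulated genes, 1 and 2 of 27 T cell receptor signalling genes, 1 and 1 of 13 lineage regulators, and none of 15 MHC class I, 13 dendritic cell or 2 B cell genes. DESeq2 called no naive or cell cycle gene, 4 immediate early genes and 7 memory genes as lower.

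Genes of red blood cells and neutrophils that passed as higher rested on single cells. In library 1, 1 CD8 T cell of 20517 UMIs held 692 of the 748 Hbb-bs UMIs of all CD8 T cells, and another of 15333 UMIs held 2123 of the 2166 S100a9 UMIs. The hemoglobin and neutrophil genes are therefore not given as levels of CD8 T cells, and every test was repeated without those 2 cells.

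On the surface, 8 of 170 antibodies (4.71%) were higher on CD8 T cells than on Cd8b1-zero T cells and 20 (11.8%) were lower, or 6 and 33 with UMI totals. The 8 include the CD8b antibody and the 20 the CD4 antibody, which the rule favours. Ly6C stood at 145 and 170 per 10000 antibody UMIs on CD8 T cells against 79.5 and 104, a log2 difference of 1.03 (SE 0.18, adjusted p = 0.00386), in the direction of its RNA. The antibody to the β chain of the T cell receptor (TCRb) stood at 27.3 and 26.7 per 10000 against 15.0 and 19.2, and the antibody to the γδ receptor (TCRgd) at 1.83 and 1.63 against 10.9 and 8.20, log2 differences of 0.91 (SE 0.20, adjusted p = 0.0171) and -2.21 (SE 0.25, adjusted p = 0.000838). The γδ antibody on CD8 T cells was within the range of the isotype controls, so the size of its difference is uncertain. CD49b, the α2 integrin chain of NK and memory-type cells, stood at 32.3 and 36.4 per 10000 against 163 and 224 (log2 difference -2.26, SE 0.29, adjusted p = 0.00104). ICOS (CD278_0171) stood at 29.7 and 32.5 against 123 and 89.2, and the costimulatory receptor GITR (CD357) at 25.1 in both libraries against 86.7 and 75.1. All 3 were lower on CD8 T cells in both libraries.

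**Figure D2:**
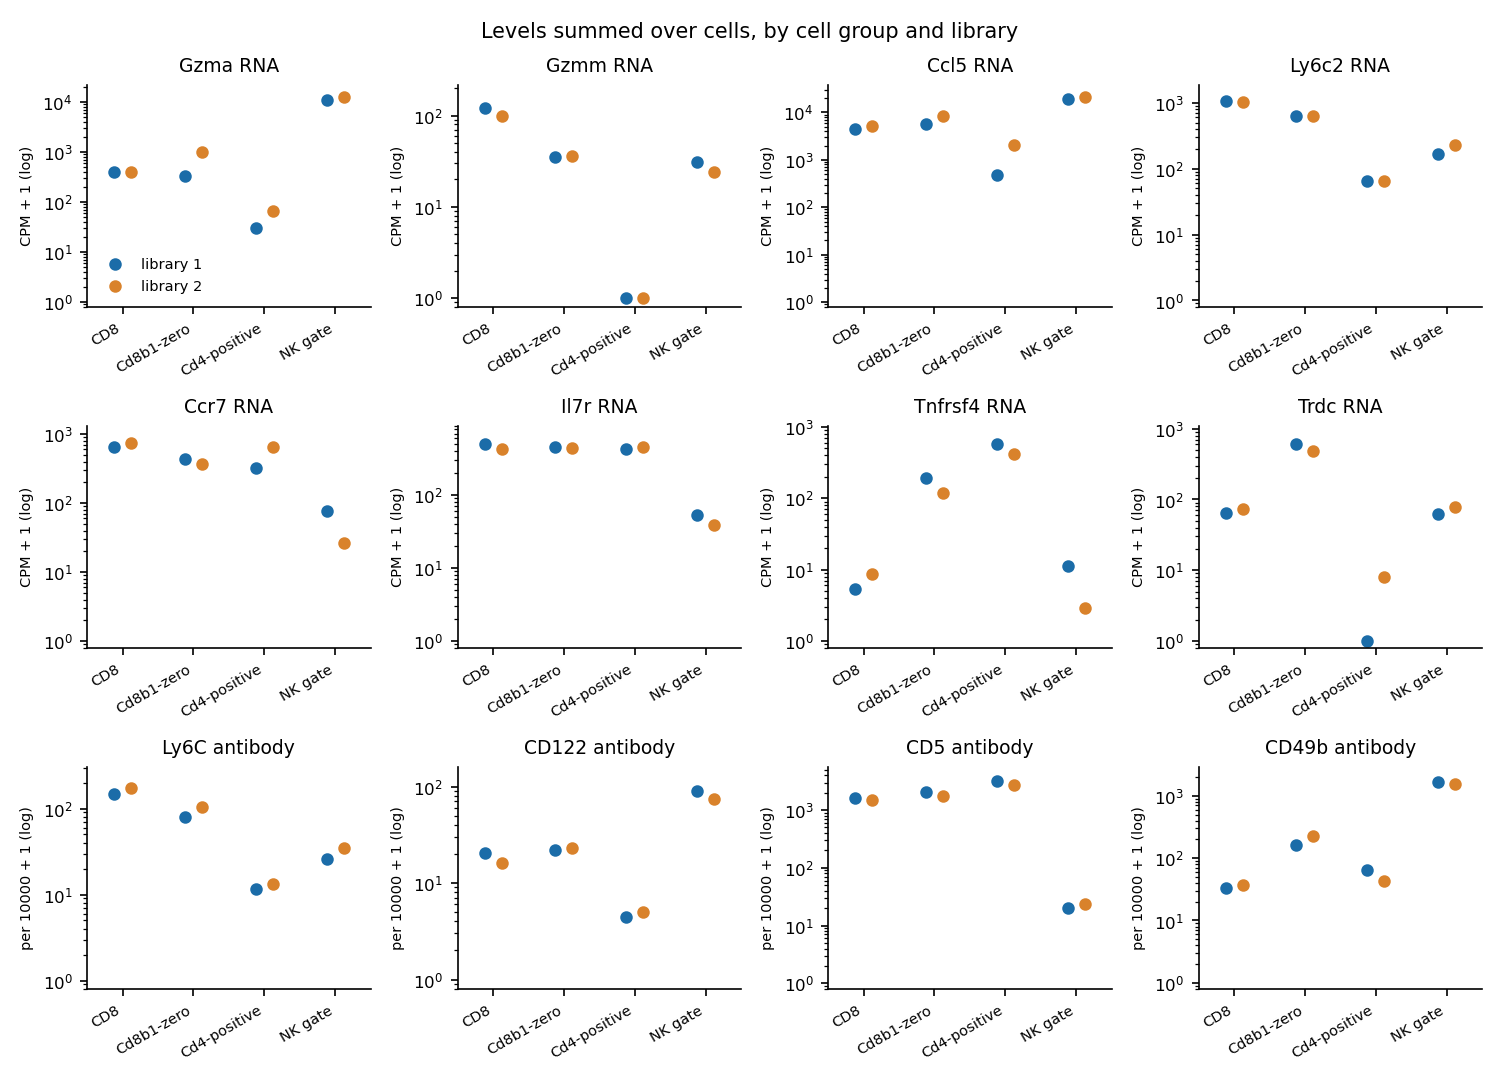
Levels of 8 genes (CPM plus 1, log scale) and 4 antibodies (per 10000 antibody UMIs plus 1, log scale) summed over the cells of each group, with 1 point per library. Gzmm is highest in CD8 T cells, Gzma, Ccl5 and the CD49b antibody in the NK gate, Tnfrsf4 in Cd4-positive T cells and Trdc in Cd8b1-zero T cells, in both libraries.

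Set against the 114 Cd4-positive T cells (65 and 49 by library), CD8 T cells had more RNA of cytotoxic genes and of Ly6c2, and less of helper and regulatory T cell genes. The test called 210 of 8269 genes higher (2.54%) and 162 lower (1.96%), or 136 and 301 with UMI totals, where the median of all genes was -0.16 against 0.05 with TMM. This comparison shares its CD8 T cells with the one above. The Cd4-positive cells gave 200942 and 139739 RNA UMIs in all, fewer than the other groups.

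In the cytotoxicity list, 9 of 22 genes were higher in CD8 T cells and 1 lower, with a median log2 difference of 1.68, or 1.18 with genes at 0 in 1 group set to their limit, against 0.05 over all genes. Nkg7 stood at 1255 and 1276 CPM against 309 and 351, a log2 difference of 2.16 (SE 0.14, adjusted p = 1.11e-09). Gzma stood at 398 and 403 CPM against 29.9 and 64.4, and Prf1 at 119 and 73.8 against 9.95 and 14.3. These 3 genes were higher in CD8 T cells in both libraries, with log2 differences of 3.38 (SE 0.47, adjusted p = 4.32e-05) for Gzma and 3.25 (SE 0.60, adjusted p = 0.00113) for Prf1. Gzmm had 280 UMIs in CD8 T cells and none in Cd4-positive cells, at least 12.5-fold higher from a limit of 3 UMIs over the group. Ccl5 stood at 4358 and 5119 CPM against 468 and 2061, a log2 difference of 2.27 (SE 0.24, adjusted p = 1.45e-06), with a wide gap between the libraries of the Cd4-positive cells. Srgn, the proteoglycan of secretory granules, was the lower gene, 1007 and 1061 CPM against 1971 and 1610 (log2 difference -0.58, SE 0.10, adjusted p = 0.000816).

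Ly6c2 stood at 1049 and 1014 CPM in CD8 T cells against 64.7 and 64.4, a log2 difference of 4.20 (SE 0.21, adjusted p = 9.22e-12). The Ly6C antibody followed, 145 and 170 per 10000 against 10.6 and 12.2 (log2 difference 3.56, SE 0.20, adjusted p = 4.14e-06). Of 170 antibodies, 14 (8.24%) were higher on CD8 T cells and 18 (10.6%) lower, or 22 and 17 with UMI totals, counts that include CD8b and CD4. CD122, the β chain of the interleukin 2 and 15 receptors, stood at 19.6 and 15.2 per 10000 against 3.48 and 3.99 (log2 difference 2.01, SE 0.23, adjusted p = 0.00024), and its RNA Il2rb at 331 and 275 CPM against 209 and 165 (0.90, SE 0.19, adjusted p = 0.00312). RNA and surface protein thus differed in the same direction for Ly6C and CD122. The chemokine receptor CXCR3 (CD183) and the scavenger receptor CD36 were also higher, at adjusted p = 0.00554 and 0.00405. CXCR3 stood at 12.7 and 10.6 per 10000 against 3.95 and 2.74 (log2 difference 1.54, SE 0.29). The highest isotype controls in the Cd4-positive cells were 2.37 and 2.49. Their CXCR3 and CD122 levels lay little above these, so the sizes of both differences are uncertain. CD36 stood at 3.86 and 5.06 per 10000, little above the isotype controls, against 0.47 and 0.997, under them, so no fold is given for it.

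Regulators of the CD4 and CD8 lineages differed in 4 of 13 genes. Runx3, which silences Cd4 in CD8 T cells, stood at 138 and 140 CPM against 79.6 and 78.7 (log2 difference 1.02, SE 0.26, adjusted p = 0.0207), a call lost with DESeq2, with UMI totals and with at least 4 Cd3 UMIs. Zbtb7b, which encodes the CD4 lineage factor ThPOK, had 2 UMIs in all CD8 T cells against 11 in Cd4-positive cells, a ratio of 41.2 per UMI (counting interval 8.98 to 382). Runx1 and Tox were lower, with log2 differences of -1.59 (SE 0.29, adjusted p = 0.000964) and -1.13 (SE 0.30, adjusted p = 0.0251, 0.076 with DESeq2). Eomes, a transcription factor of memory CD8 T cells and NK cells, stood at 107 and 78.0 CPM against 0 and 50.1, and its call (adjusted p = 0.0114) was lost with DESeq2 (0.41).

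Helper genes were lower in 13 of 19 and higher in none, with a median of -1.48, and all 5 regulatory T cell genes tested were lower, of which 4 are also in the helper list. Tnfrsf4 stood at 4.42 and 7.55 CPM in CD8 T cells against 582 and 422, a log2 difference of -6.17 (SE 0.29, adjusted p = 4.03e-12). Izumo1r, a folate receptor family member of regulatory and helper T cells, stood at 15.5 and 17.6 CPM against 249 and 308, and Ctla4, a coinhibitory receptor, at 24.3 and 21.8 against 338 and 129. All 3 were far lower in both libraries of the CD8 T cells. Cd40lg, the helper ligand of CD40, had 2 UMIs against 14, a ratio of 52.4 per UMI (counting interval 12 to 475). Cd5, an inhibitor of T cell receptor signals, stood at 137 and 140 CPM against 463 and 394 (log2 difference -1.43, SE 0.17, adjusted p = 7.8e-06), and the CD5 antibody at 1643 and 1526 per 10000 against 3163 and 2754 (-1.12, SE 0.24, adjusted p = 0.00925). CD150 stood at 27.4 and 26.8 per 10000 against 174 and 142 (-2.77, SE 0.19, adjusted p = 1.15e-05). Memory genes split, 3 higher and 9 lower of 26 with a median of -0.69: Ly6c2, Eomes and Il2rb were the higher ones, and S100a4, at 37.6 and 49.5 CPM against 806 and 286 (-3.48, SE 0.35, adjusted p = 8.91e-07), was among the lower.

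Cytokine genes were higher in 2 of 14, Ccl4 and Ccl5, and lower in 5, with a median of -1.06. Naive and recirculation genes were higher in 2 of 18 and lower in 1, with a median of 0.21. Calls numbered none higher and 4 lower of 27 T cell receptor signalling genes, 3 and 6 of 25 homing receptors, 4 and 2 of 30 cytokine receptors, none and 4 of 13 coinhibitory genes, 2 and 1 of 26 immediate early genes, 1 and 2 of 23 cell cycle genes, none and 2 of 23 interferon-stimulated genes, none and 1 of 15 MHC class I genes, and none of 13 dendritic cell or 2 B cell genes. The homing receptors Ccr4 and Ccr6 had no UMI in the CD8 T cells against 12 and 10 in the Cd4-positive cells, at least 29.9-fold and 24.9-fold lower.

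Against the NK gate (663 cells with Ncr1 and at most 1 Cd3 UMI, 271 and 392 by library), most cytotoxicity and memory genes tested were lower in CD8 T cells, and most genes of naive T cells and of T cell receptor signalling were higher. The test called 986 of 8269 genes higher (11.9%) and 982 lower (11.9%), or 682 and 1624 with UMI totals, where the median of all genes was -0.20, and 506 and 564 with DESeq2.

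Of 22 cytotoxicity genes, 16 were lower in CD8 T cells and 1 higher, with a median log2 difference of -2.34 against 0.01 over all genes. Gzma stood at 398 and 403 CPM in CD8 T cells against 10820 and 12480 in the NK gate, a log2 difference of -4.64 (SE 0.22, adjusted p = 2.15e-13). Prf1 stood at 119 and 73.8 CPM against 1128 and 1060 (-3.28, SE 0.18, adjusted p = 1.72e-12), and Gzmb at 16.9 and 93.1 against 629 and 588 (-3.36, SE 0.27, adjusted p = 1.77e-09). Nkg7 was nearer to the NK level, 1255 and 1276 CPM against 4666 and 4759 (-1.68, SE 0.10, adjusted p = 1.09e-11), as was Ccl5, 4358 and 5119 CPM against 18710 and 21430 (-1.87, SE 0.21, adjusted p = 2.24e-07). Gzmm was the gene that went the other way, 121 and 97.3 CPM against 30.2 and 23.3 (2.25, SE 0.21, adjusted p = 3.55e-08). In no case did the libraries of the groups overlap.

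Cytokine and chemokine genes were lower in 7 of 14 and higher in 2. Ccl3 stood at 6.63 and 13.4 CPM in CD8 T cells against 731 and 976 (log2 difference -6.20, SE 0.19, adjusted p = 2.31e-16), Xcl1 at 160 and 172 against 1724 and 1262 (-2.97, SE 0.26, adjusted p = 5.14e-09) and Ifng at 28.7 and 18.4 against 390 and 452 (-3.93, SE 0.18, adjusted p = 1.98e-13). The CD8 T cells were the lower group in each library for all 3. Memory genes were lower in 22 of 26 and higher in 1, Ly6c2, with a median of -1.93. They include Tbx21, which encodes the effector factor T-bet, at 26.5 and 14.3 CPM against 140 and 170 (-2.69, SE 0.23, adjusted p = 2.69e-09), and Il2rb, at 331 and 275 against 1187 and 879 (-1.55, SE 0.12, adjusted p = 3.92e-10). Immediate early genes were lower in 15 of 26 and higher in 2, with a median of -0.57, and Nr4a1 stood at 157 and 141 CPM against 1058 and 892 (-2.49, SE 0.12, adjusted p = 1.81e-13). Cell cycle genes were lower in 15 of 23 and higher in none, of which DESeq2 called 7.

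Naive and recirculation genes were higher in 15 of 18 and lower in 1, with a median of 2.61. Ccr7 stood at 659 and 740 CPM in CD8 T cells against 76.3 and 25.2 (log2 difference 4.12, SE 0.26, adjusted p = 3.14e-11), Il7r, the interleukin 7 receptor that sustains resting T cells, at 502 and 423 against 51.8 and 38.2 (3.59, SE 0.16, adjusted p = 6.41e-14), and S1pr1, the receptor for exit from lymphoid tissue, at 225 and 217 against 25.9 and 18.6 (3.54, SE 0.19, adjusted p = 1.96e-12). Each was higher in both libraries. Dapl1 had 485 UMIs against 1, a ratio of 336 per UMI (counting interval 60.1 to 13310). T cell receptor signalling genes were higher in 16 of 27 and lower in 3, with a median of 0.41, or 10 and 1 with DESeq2 and 11 and 4 with UMI totals. They include Themis, a thymocyte signalling protein, with 227 UMIs against 2 (ratio 78.7, counting interval 21.5 to 654), and Lat, the adaptor of the T cell receptor, at 348 and 330 CPM against 66.2 and 60.6 (2.63, SE 0.14, adjusted p = 2.45e-12). Interferon-stimulated genes were higher in 10 of 23 and lower in 2, with a median of 0.89. Slfn1, a gene that restrains T cell growth, had 166 UMIs against none, at least 38.4-fold higher.

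The remaining lists split: 8 higher and 9 lower of 25 homing receptors, 8 and 12 of 30 cytokine receptors, 9 and 3 of 19 helper genes, 2 and 6 of 13 coinhibitory genes, 5 and 3 of 13 lineage regulators, none and 4 of 15 MHC class I genes, and none and 2 of 13 dendritic cell genes. Of the 2 B cell genes tested 1 was higher, Ighm. On the surface, 32 of 170 antibodies (18.8%) were higher on CD8 T cells and 20 (11.8%) lower, or 26 and 38 with UMI totals. The counts include the CD3 antibody and CD335, the protein of Ncr1, both favoured by the gates. The CD8b antibody, favoured too, was among those tested. CD5 stood at 1643 and 1526 per 10000 against 18.9 and 22.5 (log2 difference 6.64, SE 0.31, adjusted p = 1.17e-06), and the ectonucleotidase CD73 at 152 and 121 against 21.4 and 16.5 (3.25, SE 0.19, adjusted p = 2.72e-06). CD49b stood at 32.3 and 36.4 per 10000 against 1641 and 1525 (-5.13, SE 0.33, adjusted p = 3.34e-06), and CD122 at 19.6 and 15.2 against 88.6 and 73.5 (-1.81, SE 0.18, adjusted p = 3.8e-05). The groups were apart in both libraries for all 4.

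**Figure D3:**
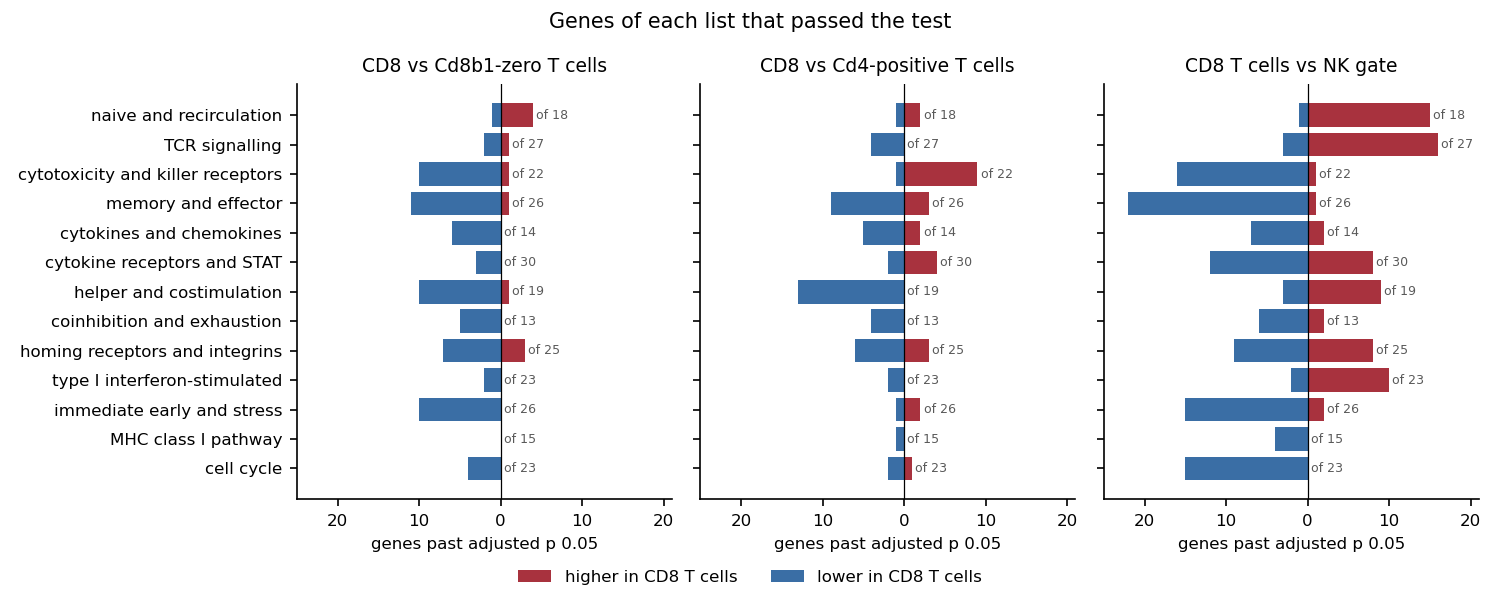
Number of genes per list past an adjusted p of 0.05 (bars to the right higher in CD8 T cells, bars to the left lower), with the number tested written beside, for the 3 comparisons of CD8 T cells. The cytotoxicity list is mostly lower against the NK gate (16 of 22) and mostly higher where called against Cd4-positive T cells (9 of 22), and the naive list is mostly higher against the NK gate (15 of 18).

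The CD8 T cells were then divided among themselves by surface Ly6C, a protein of memory-type CD8 T cells, since the CD44 antibody gave too few counts. Within each library they were ranked by Ly6C per 10000 antibody UMIs and cut into terciles, 3 classes of equal size, which are ranges and not cell types. In the upper Ly6C tercile, with medians of 233 and 299 per 10000 against 15.6 and 15.4 in the lower tercile, CD8 T cells had more Il2rb, Gzmm and Dusp2 RNA and more surface CD36 and CD122. The lower tercile had more Gzma, S100a4, Igfbp4 and Ramp1 RNA and more surface CD103 and CD150. Here 36 and 31 cells lay within 20% of the lower cut in libraries 1 and 2 and 57 and 35 within 20% of the upper cut, and median RNA depth was 4136.5 and 3653.5 UMIs in the upper tercile and 3305 and 2771 in the lower tercile. The fit called 133 of 5184 genes higher in the upper tercile (2.57%) and 99 lower (1.91%), or 90 and 151 with UMI totals, where the median of all genes was -0.10. DESeq2 called 17 and 8. Surface CD4 moved with this split: the CD4 antibody stood at 60.8 and 42.0 per 10000 in the lower tercile against 8.26 and 8.43 in the upper (log2 difference -2.56, adjusted p = 0.0193), and of the 11 cells with at least 10 CD4 UMIs 8 lay in the lower tercile, 3 in the middle and none in the upper. The 5 regulatory T cell markers found summed to 135 and 164 CPM in the lower tercile against 14.3 and 58.8 in the upper, and both that were tested, Ctla4 and Ikzf2, were lower in the upper tercile. Without those 11 cells the CD4 antibody was not called (-0.09, adjusted p = 0.89), which their choice by that antibody favours. In the same fit edgeR called 93 genes higher and 48 lower, with the calls of Ctla4 (0.11), Cst3 (0.065) and Eomes (0.09) lost. Gzma, Il2rb, Gzmm, Ramp1, Igfbp4, S100a4 and Itga4 stayed past the threshold without them, as did surface CD103, CD150, CD36 and CD122. Ly6c2 itself stood at 1499 and 1589 CPM in the upper tercile against 396 and 239, given as a description because the split used its protein.

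Il2rb stood at 437 and 414 CPM in the upper Ly6C tercile against 182 and 170 in the lower, a log2 difference of 1.37 (SE 0.16, adjusted p = 1.1e-14; 0.00049 with DESeq2), and the CD122 protein it encodes at 29.0 and 26.7 per 10000 against 11.3 and 8.90 (1.55, SE 0.24, adjusted p = 0.0174). RNA and protein were both higher in the upper tercile of each library, though the antibody call was lost without the block. Dusp2, a phosphatase of activated lymphocytes, stood at 717 and 649 CPM against 391 and 395 (0.89, SE 0.12, adjusted p = 8.01e-10; 0.0035 with DESeq2). Satb1, a chromatin organiser of T cells, stood at 607 and 544 against 356 and 329 (0.84, SE 0.13, adjusted p = 7.21e-08; 0.02), and Ifngr1, a chain of the interferon-γ receptor, at 662 and 597 against 402 and 392 (0.76, SE 0.13, adjusted p = 6.17e-07; 0.037). Gzmm stood at 161 and 147 CPM against 69.8 and 53.0 (1.41, SE 0.24, adjusted p = 1.11e-06; 0.12 with DESeq2). Each was higher in the upper tercile in both libraries. Of the cytokine receptor list, 7 of 22 were higher and 1 lower, with a median of 0.32 against 0.00 over all genes, of which DESeq2 called 2 and 1.

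The genes lower in the upper tercile were thus higher in the summed RNA of Ly6C-low CD8 T cells. They began with Gzma, at 133 and 135 CPM against 714 and 477 (log2 difference -2.07, SE 0.16, adjusted p = 3.04e-32; 0.0031 with DESeq2). Gzma RNA sat in few cells, and without the highest cell of each lower tercile its level there was 304 and 337 CPM, still above the upper tercile. In library 1 nearly as many cells held it in the upper tercile (12 of 116) as in the lower (14 of 117). In library 2 these were 3 of 110 and 16 of 111, and the middle tercile, at 602.5 CPM, was above the lower. Xcl1 stood at 63.3 and 108 CPM against 349 and 332 (-1.93, SE 0.19, adjusted p = 3.59e-20; 9.7e-05), but 1 cell held 123 of the 150 Xcl1 UMIs in the lower tercile of library 1. Without it that level was 63.5 CPM, no higher than in the upper tercile, so the difference in library 1 rests on that cell, while library 2 stood at 193 CPM without its own highest cell. The fit without the cell with most Xcl1 gave a log2 difference of -1.02 (adjusted p = 0.00176), and the call was lost when quintiles were compared. Counts of cells with any Xcl1 went the other way, with 20 of 116 and 32 of 110 in the upper tercile. In the lower tercile they were 13 of 117 and 13 of 111. The lower tercile therefore had more summed Xcl1 RNA but not more cells with it. Ifngr2, the other chain of the interferon-γ receptor, stood at 8.17 and 19.6 CPM against 79.1 and 119 (-2.75, SE 0.38, adjusted p = 4.28e-10; 0.02), against the direction of Ifngr1. Ramp1, a co-receptor for a neuropeptide, stood at 14.3 and 4.9 CPM against 95.4 and 92.8 (-3.11, SE 0.41, adjusted p = 7.81e-11; 0.013), and Igfbp4 at 22.5 and 4.9 against 102 and 95.5 (-2.67, SE 0.37, adjusted p = 6.94e-10; 0.029). Ramp1, Igfbp4 and Ifngr2 were low in the upper tercile of both libraries. Dapl1, at 81.7 and 196 CPM against 268 and 318 (-1.03, SE 0.17, adjusted p = 1e-06; 0.14 with DESeq2), and Ccr9, the gut-homing receptor, with 2 UMIs against 33 (ratio 18.4, counting interval 4.70 to 158), were lower too.

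S100a4 stood at 16.3 and 17.1 CPM in the upper tercile against 72.1 and 90.2 (-2.15, SE 0.38, adjusted p = 2.59e-06; 0.15 with DESeq2), and Itga4 at 55.2 and 63.7 against 154 and 149 (-1.26, SE 0.24, adjusted p = 3.19e-05; 0.32 with DESeq2). Both were lower in each library. Ccl5, at 4445 and 3996 CPM against 4286 and 5323 (-0.08, SE 0.08, adjusted p = 0.724), and Nkg7, at 1234 and 1352 against 1226 and 1225 (0.17, SE 0.10, adjusted p = 0.428), did not pass, and the libraries of Ccl5 overlapped between the terciles. Memory genes were higher in 5 of 20 and lower in 5, with Ly6c2 among the former, naive genes in 4 and 3 of 18, cytotoxicity genes in 2 and 2 of 15, and cytokines in none and 2 of 7, with medians of 0.52, 0.20, 0.40 and -0.08. The memory count and median include Ly6c2, whose protein made the split. The 2 lower cytokines were Xcl1 and Ccl4, and the call of Ccl4 was lost with DESeq2, with quintiles and with thinned cells. Like Xcl1, Ccl4 was found in more upper-tercile cells (28 and 33 by library) than lower-tercile cells (22 and 26). Cell cycle genes were lower in 6 of 16 and higher in none, with a median of -1.02, and none of those calls was kept by DESeq2. Calls numbered 4 and 2 of 21 homing receptors, 5 and 1 of 24 immediate early genes, 2 and 4 of 13 helper genes, 2 and none of 26 T cell receptor signalling genes, 1 and none of 11 lineage regulators, none and 1 of 15 interferon-stimulated genes, and none of 15 MHC class I, 7 coinhibitory or 2 B cell genes. Of 10 dendritic cell genes 3 were lower in the upper tercile, among them Cst3 at 772 and 906 CPM against 998 and 1626 (-0.51, SE 0.10, adjusted p = 9.27e-05; 1.0 with DESeq2). The 15 dendritic cell markers summed to 3041 and 6126 CPM in the lower Ly6C tercile and to 2801 and 3315 CPM in the upper, a gap that was wide in library 2 only, and Cst3 was not called without the cells that had surface CD4. The part of this RNA in the other differences was not tested.

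On the surface, 7 of 171 antibodies (4.09%) were higher in the upper Ly6C tercile and 14 (8.19%) lower, or 7 and 16 with UMI totals. CD36 stood at 8.14 and 10.4 per 10000 against 0.58 and 1.08 (adjusted p = 0.00205), with no fold given because the lower tercile was under the highest isotype control, and no CD8 T cell had 10 CD36 UMIs. CXCR3 (CD183) stood at 16.3 and 13.8 per 10000 against 8.42 and 5.53 (log2 difference 1.19, SE 0.21, adjusted p = 0.0219), a call lost with DESeq2, without the block and with isotype counts. CD103 stood at 2.41 and 6.22 per 10000 against 39.5 and 47.0 (-3.33, SE 0.30, adjusted p = 0.00228), and the antibody listed only as Integrin at 18.0 and 29.7 against 145 and 140 (-2.54, SE 0.21, adjusted p = 0.00216). CD150 stood at 13.8 and 15.3 against 48.3 and 46.5 (-1.63, SE 0.17, adjusted p = 0.0038), and CD69 at 2.87 and 4.84 against 11.5 and 13.9 (-1.68, SE 0.23, adjusted p = 0.0138), a call lost with DESeq2 and with quintiles. CD36, CD103, Integrin and CD150 kept their calls in every alternative with a test. KLRG1, at 3.21 and 1.38 per 10000 against 26.1 and 12.9 (-2.97, SE 0.46, adjusted p = 0.0174), lost its call when quintiles were compared. The upper-tercile levels of KLRG1, CD103 and CD69 in library 1, and of KLRG1 in library 2, lay near or under the highest isotype control, so the sizes of those differences are uncertain.

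Single cells with at least 10 UMIs of KLRG1, CD103, CD150 or CD69 lay unevenly over the Ly6C range. Of the 22 cells with at least 10 KLRG1 UMIs, 10 were in the lower, 11 in the middle and 1 in the upper Ly6C tercile. Of the 21 CD103-bearing cells, 14 were in the lower tercile, 6 in the middle and 1 in the upper. CD150-bearing cells numbered 19, 5 and 6 in the same order, and CD69-bearing cells 8, 2 and 2. KLRG1 was thus found in the lower and middle terciles alike, while the other proteins were most frequent in the lower one. Both Ly49D-bearing cells lay in the lower tercile, with 26 and 17 Gzma UMIs, and Gzma stayed past the threshold without them. The Ly49D antibody stood at 0.92 and 1.66 per 10000 in the upper tercile against 11.2 and 15.7 in the lower with these cells included. Without them it was not called (edgeR adjusted p = 0.84), which their choice by that antibody favours. These cell counts are descriptions with no test.

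**Figure D4:**
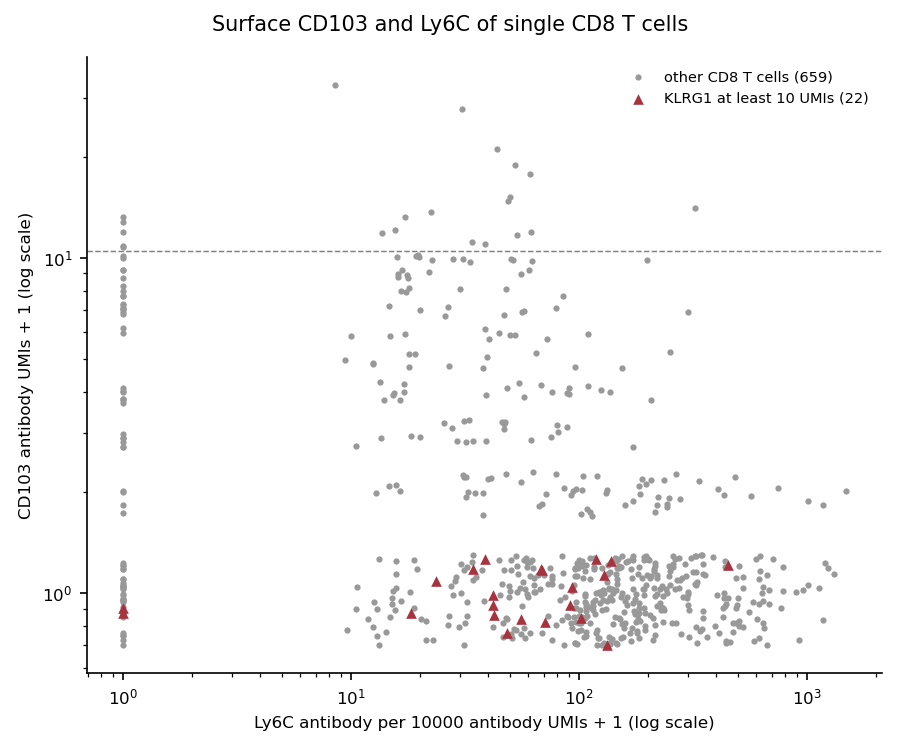
CD103 antibody UMIs (vertical, log scale, 1 added, with small random shifts) against surface Ly6C (horizontal, per 10000 antibody UMIs plus 1, log scale) in the 681 CD8 T cells. The dashed line parts cells with at least 10 CD103 UMIs (21, above) from the rest, and triangles mark the 22 cells with at least 10 KLRG1 UMIs, all of which lie below the line. Cells of both kinds are too few to show whether KLRG1 and CD103 are carried together.

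**Figure D5:**
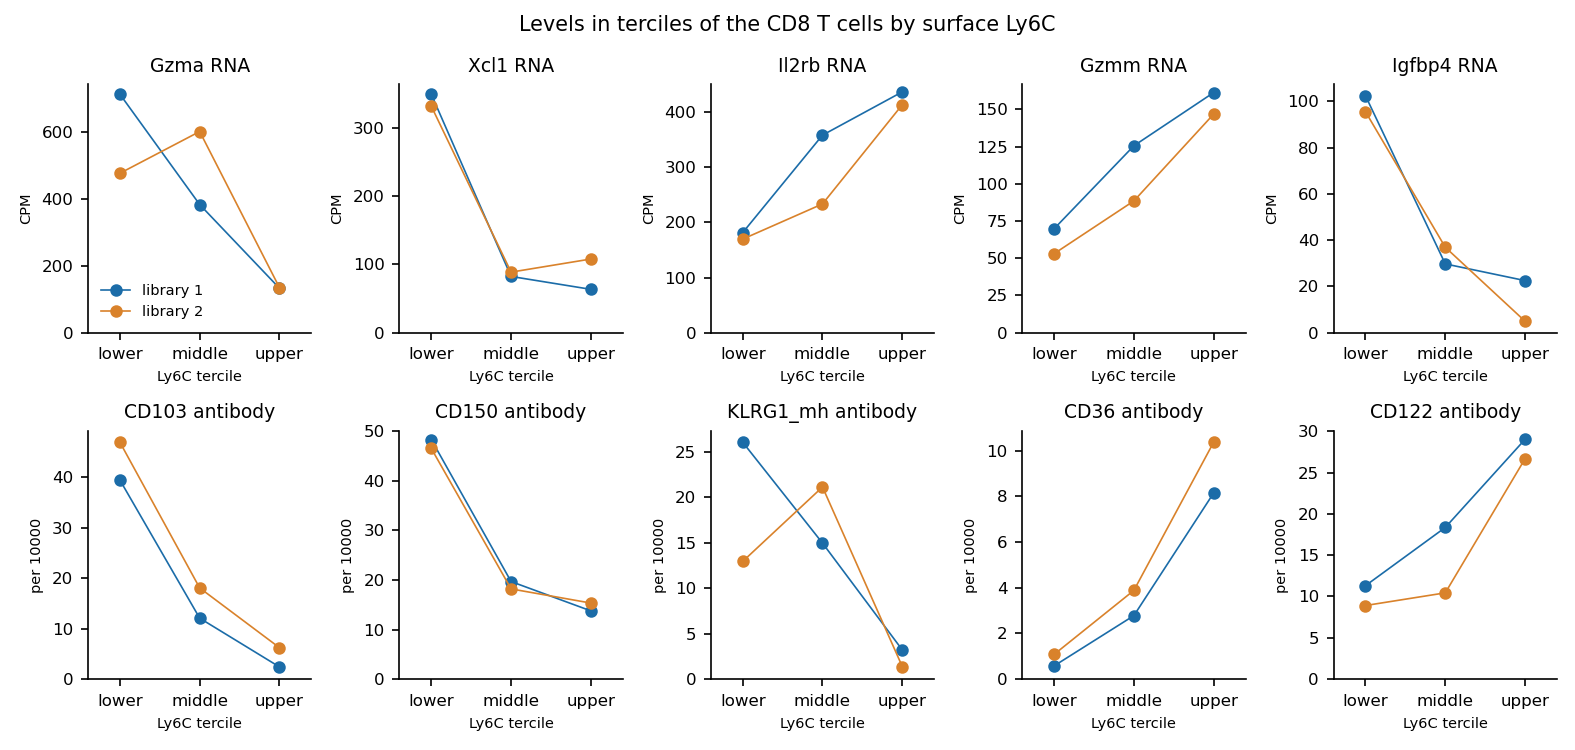
Levels of 5 genes (CPM, top) and 5 antibodies (per 10000 antibody UMIs, bottom) in the lower, middle and upper tercile of the CD8 T cells by surface Ly6C, with 1 line per library. CD103 falls, and CD36, Il2rb and Gzmm climb, from the lower to the upper tercile in both libraries, while Gzma and KLRG1 are lowest in the upper tercile. The Xcl1 value of the lower tercile in library 1 rests on 1 cell.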

How the data were processed

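Cell Ranger 3.1.0 made the deposited matrix of raw UMI counts per gene and antibody, per the file headers. The submitters' processing notes also name STAR, Seurat 3.1.4 and mm10, with no role given. The 2 libraries were told apart by barcode suffix. UMIs were summed per cell group and library and tested with edgeR 4.0.16 (R 4.3.3), quasi-likelihood, TMM, library as a block, two-sided, with Benjamini-Hochberg adjustment over all features tested and a threshold of 0.05. In these fits genes were filtered with filterByExpr, and antibodies were kept if they had at least 100 UMIs over all barcodes. DESeq2 1.42.0 was an alternative. Scrublet (scanpy 1.11.5) marked doublets. The test was tested on simulated data with a fixed spread and no library effect. Of genes changed by a log2 difference of 1, it recovered 47.3% against Cd8b1-zero T cells and 10.5% against Cd4-positive T cells. The shares were 31.1% against the NK gate and 37.5% for the Ly6C terciles. At a log2 difference of 2 they were 87.9%, 60.5%, 86.6% and 82.7% in the same order. A gene that did not pass may therefore still differ.

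CPM are UMIs scaled to 1000000 RNA UMIs and are not scaled by gene length, so genes are not compared with each other. Fitted log2 differences carry TMM factors. Named genes were the 12 largest changes in each direction with at least 20 CPM and one direction in both libraries, members of the lists that passed or that a result turned on, and the 12 largest antibody changes; a selection of these is printed. The members and lists were chosen with earlier results of these data known. The planned split by the CD44 antibody could not be made, so terciles of Ly6C were used, chosen after seeing the data, as were quintiles, UMI totals without TMM, cells with matching surface CD8b, and fits without 2 single cells, 2 Ly49D-bearing cells, the cell with most Xcl1 or 11 cells with surface CD4. Deviations of same-library groups correlated at -0.024 to 0.061, and the block was kept because the groups are cells of the same libraries. Some results that were computed, among them another division of the CD8 T cells, are not reported here.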

Additional observations from a re-analysis of the deposited data

How the results depend on the processing

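With the library as a replicate block left out, the Ly6C terciles gave 141 genes and 9 antibodies past the threshold, and 13 of 187 named calls were lost. DESeq2 called 192 genes against Cd8b1-zero T cells, 1070 against the NK gate and 25 for Ly6C, and lost 47 of the 187. For the Ly6C terciles, 63 genes were called with cells thinned to 1500 UMIs, with fewer genes tested. Without the 11 cells with surface CD4 they gave 141 genes. Quintiles of Ly6C gave 116 genes and 11 antibodies, and isotype counts as library size and RLE scaling gave 13 antibodies each. The Ly49D antibody over Ly6C reversed with quintiles, to a log2 difference of 0.11. Cells with at least 1500 UMIs were also thinned before the rule was applied. The CD8 share of CD8 and Cd8b1-zero cells together was then 36.6% and 40.3% in libraries 1 and 2. Such cells unthinned gave 49.6% and 53.6%. The cause of these changes was not tested. Of 2510 tests of named features under the alternatives, 2402 kept their direction and side of the threshold. Without replicate 1 or without replicate 2, a value with no test, 431 and 435 of the 435 genes called against Cd8b1-zero T cells kept their direction, as did 370 and 371 of 372 against Cd4-positive T cells, 1957 and 1963 of 1968 against the NK gate and 230 and 231 of 232 for Ly6C. All these genes were called from both libraries together, so their direction in each one is no independent support. Named genes chosen for one direction in both libraries could not change theirs.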
